A study of Mus musculus with 5 samples.

Results

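The mitochondrial ribosomal protein genes are the nuclear genes whose symbols begin with Mrpl (large subunit) or Mrps (small subunit) followed by a digit. They were followed in an RNA immunoprecipitation experiment with the RNA-binding protein MKRN1 (makorin ring finger protein 1). The platform annotation assigned 1 gene symbol to 21640 of the 34760 probe sets, which stood for 19937 genes. Of these, 77 genes on 85 probe sets were members, 48 of the large and 29 of the small subunit, and where a gene had several probe sets the brightest on average was used. The members were chosen by name and not by their values.

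Mitochondria carry ribosomes of their own, which translate the few proteins encoded in mitochondrial DNA, all of them parts of the oxidative phosphorylation machinery. Every protein of these ribosomes is encoded in the nucleus, made by cytosolic ribosomes and imported. Some descend from bacterial ribosomal proteins and carry the bacterial number, and others are found only in mitochondrial ribosomes. The large subunit holds the peptidyl transferase centre and the exit tunnel, and the small subunit holds the mRNA channel and the decoding centre. In RNA immunoprecipitation followed by arrays, an antibody pulls a protein out of a cell lysate and the RNA that comes with it is hybridised beside RNA of the lysate itself, the input.

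The cells were R1 mouse embryonic stem cells (male, 129X1 x 129S1), stably carrying a pCAGGS-driven FLAG construct either with MKRN1 (FLAG:MKRN1) or without it (FLAG:Ctrl) and selected with G418. Cells were thawed on mouse embryonic fibroblast feeders, which were then removed by passaging on gelatin in medium with serum and LIF, so that all 5 samples share this culture and the resistance cassette. The 5 samples, each 1 array, were the FLAG:Ctrl input, the FLAG:MKRN1 input, the anti-FLAG RIP from FLAG:Ctrl cells, the anti-FLAG RIP from FLAG:MKRN1 cells and the IgG RIP from FLAG:MKRN1 cells. The FLAG:Ctrl RIP lacks the tagged protein and the IgG RIP lacks the anti-FLAG antibody, so both measure RNA recovered without the specific pull-down. All values below are the deposited values on the log2 scale, a difference of 1 is 2-fold, and with 1 array in each group no difference has a replicate check and none was tested.

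The targeted gene did not separate the labels: Mkrn1 read 11.80 in the FLAG:Ctrl input and 11.71 in the FLAG:MKRN1 input, so the specific pull-down is called the MKRN1-labelled RIP. Where the Mkrn1 probe set lies relative to the construct is not known here, so these values do not show whether the construct was expressed. Of 10 embryonic stem cell markers, all passed the level filter, a mean over the arrays of at least 5.76, the median probe set. They read lower in the MKRN1-labelled RIP than in the FLAG:Ctrl RIP for 9 of 10 (median -0.33) and than in the IgG RIP for 7 of 10 (median -0.19), and their summed level was 108 there against 109 to 112 on the other arrays. Of 10 fibroblast markers 5 passed, while Col6a3, Postn, Dcn, Lum and Pdgfrb fell below it. All 5 that passed read higher in the MKRN1-labelled RIP than in either control RIP, by a median of 0.24 (FLAG:Ctrl) and 0.27 (IgG). The summed log2 level of the 10 fibroblast markers was 59.2 and 57.5 in the FLAG:Ctrl and FLAG:MKRN1 inputs, 57.1 and 56.4 in the FLAG:Ctrl and IgG RIPs and 58.9 in the MKRN1-labelled RIP, and the part of either marker list in the results below was not tested. The MKRN1-labelled RIP also had the narrowest spread of values over all probe sets (SD 2.19, against 2.28 to 2.35 on the other 4 arrays). All 77 members passed the level filter, with means from 7.10 to 11.98, as did 11502 of all 19937 genes, which are the background throughout.

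The starts of 3 large-subunit genes are shown because, within the large subunit, these members had the highest values in the MKRN1-labelled RIP relative to both control RIPs among those with an entry in the RefSeq promoter table. Each line is the 100 bases just before the annotated start on the plus strand of GRCm38.p6. Capitals mark a match to the letters of a motif, AAGATGGCG (YY1) or CCGGAAG (ETS), on either strand. The first lies at chr13:73330909-73331008, the next at chr8:71464826-71464925 and the last at chr14:54426809-54426908.
Mrpl36: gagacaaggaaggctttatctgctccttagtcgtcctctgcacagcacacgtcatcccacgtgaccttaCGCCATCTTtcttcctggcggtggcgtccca
Mrpl34: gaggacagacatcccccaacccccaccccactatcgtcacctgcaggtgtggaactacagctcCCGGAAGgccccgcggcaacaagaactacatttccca
Mrpl52: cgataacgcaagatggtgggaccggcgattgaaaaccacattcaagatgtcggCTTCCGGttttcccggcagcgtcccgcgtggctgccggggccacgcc
Over the 250 bases before the start, 68 members had an entry. The ETS letters CCGGAAG, on either strand, stood in 17 of them (25%), 11 of 42 in the large and 6 of 26 in the small subunit, against 7.83% of all 27025 genes in the table and 15.6% of the genes that passed the level filter. The palindromic motif of NRF1, a regulator of nuclear genes for mitochondrial proteins, stood in Mrpl9, Mrpl32 and Mrpl39 (4.41%, against 0.877% of all genes in the table and 1.90% of the kept genes). The YY1 letters AAGATGGCG, on either strand, stood in Mrpl36 and Mrps11 (2.94%, against 0.710% of all genes and 1.41% of the kept genes). The motifs describe DNA upstream of the genes, while the arrays measured RNA.

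Recovery in the control RIPs relative to their own inputs was shared by most mitochondrial ribosomal protein genes. In the FLAG:Ctrl RIP, 66 of the 77 members read higher than in the FLAG:Ctrl input and 8 lower, where 51.4% of all kept genes read higher and 33.6% lower, and the median member difference was 0.25 against 0.01 over all kept genes. In the IgG RIP, 65 members read higher than in the FLAG:MKRN1 input and 9 lower, where 50.7% of all kept genes read higher and 32.1% lower, with a median of 0.34 against 0.00. With quantile normalization these member medians fell to 0.14 and 0.23, and with the trend against signal level removed to 0.12 and 0.23. These comparisons share no array, and 60 of the 77 members were above their own input in both, as were 36.8% of all kept genes. The count and its background both moved with the scaling, to 68 members and 64.5% of all kept genes with arrays centred on all probe sets, 52 and 24.8% with arrays centred on the kept genes, 50 and 40.6% with quantile normalization, and 49 and 33.5% with the trend against signal level removed. A gene with equal RIP and input values does not count as above, and such ties were more common in the background. Between the FLAG:Ctrl RIP and its input, 3 members and 15.1% of all kept genes were tied. Between the IgG RIP and its input the ties were 3 members and 17.2%. Ties therefore lower the background share of 36.8% more than the member count, and their part in the gap was not tested. With the deposited values, 38 of 48 large-subunit and 22 of 29 small-subunit members were above input in both control RIPs. The MKRN1-labelled RIP, which is set against the same input as the IgG RIP, had 57 members above that input and 19 below, where 49.6% of all kept genes were above and 43.5% below, with a median of 0.23 against 0.

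**Figure D1:**
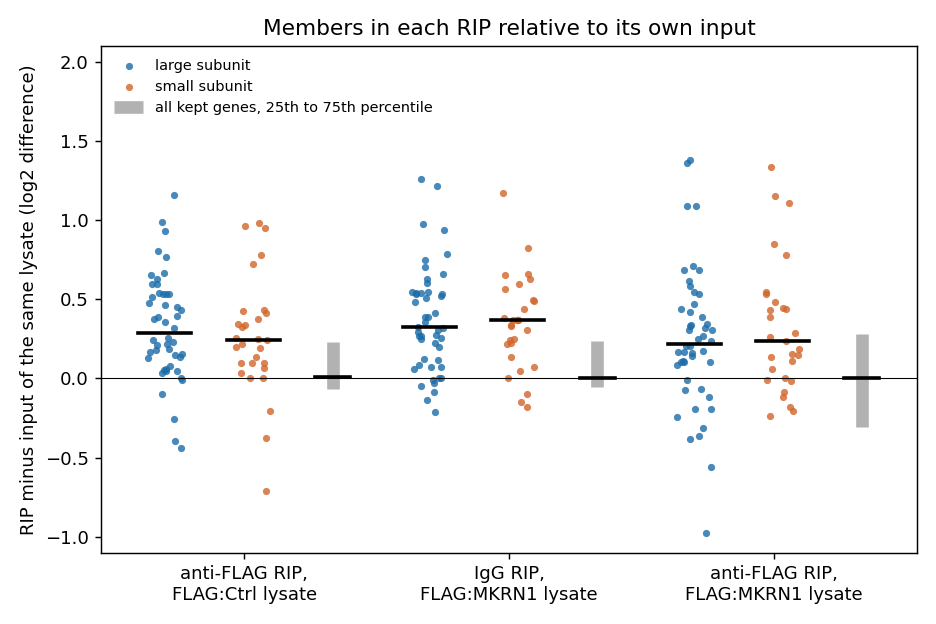
Difference (log2) between each of the 3 RIPs and the input of its own lysate for every mitochondrial ribosomal protein gene (points), large and small subunit apart, with lines at the medians and grey bars from the lower to the upper quartile of all kept genes. Most points lie above 0 in each RIP, the controls included: 66 of 77 in the FLAG:Ctrl RIP, 65 in the IgG RIP and 57 in the MKRN1-labelled RIP, the last pair sharing an input array.

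Few of these differences were large. In the FLAG:Ctrl RIP only Mrpl9, homologous to bacterial L9, passed 2-fold above its input, with 8.22 in the FLAG:Ctrl input, 8.80 in the FLAG:MKRN1 input, 9.38 in the FLAG:Ctrl RIP, 9.39 in the MKRN1-labelled and 9.19 in the IgG RIP. All 3 RIPs read above both inputs for this gene, and the FLAG:Ctrl RIP stood 1.16 above its own. The background for 2-fold above input in the FLAG:Ctrl RIP was 0.948%.

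In the IgG RIP 3 members passed 2-fold above the FLAG:MKRN1 input, where 1.32% of all kept genes did: Mrpl13 (1.26), Mrpl47 (1.22), homologous to bacterial L29, and the mitochondria-specific small-subunit gene Mrps25 (1.17). Mrps25 read 9.05 in the FLAG:Ctrl input, 8.48 in the FLAG:MKRN1 input, 9.83 in the FLAG:Ctrl RIP, 9.81 in the MKRN1-labelled and 9.65 in the IgG RIP, so the 3 RIPs lay close together and above both inputs. Mrpl47 read 8.80, 8.46, 9.56, 9.15 and 9.68 on the arrays in the same order, again with every RIP above every input. Its other, dimmer probe set did not repeat this: it read 6.95, 6.76, 6.76, 6.63 and 6.76, with no RIP above an input. No member was 2-fold below its input in either control RIP, as 0.374% of all kept genes were in the FLAG:Ctrl RIP and 0.461% in the IgG RIP. The lowest in the FLAG:Ctrl RIP was Mrps18b, 1 of 3 mammalian paralogues of bacterial S18, at 9.82 in the FLAG:Ctrl input against 9.11, a difference of -0.71. It read 9.15 in the FLAG:MKRN1 input, 9.14 in the MKRN1-labelled and 8.97 in the IgG RIP, so that the FLAG:Ctrl input stood apart from the other 4 arrays.

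In the MKRN1-labelled RIP 7 members were at least 2-fold above the FLAG:MKRN1 input and none below by as much (2.47% of all kept genes above, 5.51% below). They were Mrpl52 (1.38), Mrpl36 (1.36), Mrps25 (1.33), Mrps36 (1.15), Mrps26 (1.11), Mrpl41 (1.09) and Mrpl58 (1.09). Mrpl58 is the peptidyl-tRNA hydrolase of the large subunit, a ribosome rescue factor. Of these 7, Mrps25 differed from the control RIPs by -0.02 (FLAG:Ctrl) and 0.16 (IgG), Mrpl58 by 0.15 and 0.38, and Mrpl41 by 0.22 and 0.31. Mrpl58 and Mrpl41 also read above input in the control RIPs, by 0.47 and 0.71 and by 0.66 and 0.78. The lowest members against this input were Mrpl14 (-0.97), Mrpl16 (-0.56) and Mrpl15 (-0.38), all homologues of bacterial large-subunit proteins.

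The central comparison asks which transcripts were recovered with MKRN1 beyond the control RIPs. A gene was called higher where the MKRN1-labelled RIP exceeded each control RIP by 2-fold or more and also read above its own input, and called lower in the reverse case. Among the members 1 was called higher, Mrpl36, and 1 was called lower, Mrpl13. Over all kept genes 1.09% were called higher and 5.36% lower, so 1 of 77 is near the background for the higher call and below it for the lower call. Both comparisons use the same MKRN1-labelled array and are not independent of each other.

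Mrpl36, the homologue of the small bacterial large-subunit protein L36, read 8.68 in the FLAG:Ctrl input, 8.65 in the FLAG:MKRN1 input, 8.91 in the FLAG:Ctrl RIP, 10.01 in the MKRN1-labelled and 8.97 in the IgG RIP. The MKRN1-labelled RIP was the highest array and the other 4 lay close together. It was 2.14-fold above the FLAG:Ctrl RIP, 2.05-fold above the IgG RIP and 2.56-fold above the FLAG:MKRN1 input. With each array centred on the median of all probe sets the fold fell short of 2 and the call was lost.

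Mrpl13, the homologue of bacterial L13, gave the opposite picture. It read 9.52 in the FLAG:Ctrl input, 9.08 in the FLAG:MKRN1 input, 10.33 in the FLAG:Ctrl RIP, 9.00 in the MKRN1-labelled and 10.34 in the IgG RIP. Here both control RIPs were above both inputs and the MKRN1-labelled RIP lay beside its input, 0.07 below it. The FLAG:Ctrl RIP exceeded the MKRN1-labelled RIP 2.50-fold, and the IgG RIP exceeded it 2.52-fold. The call was lost with quantile normalization, with the trend against signal level removed, and with each RIP's own input taken off first.

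**Figure D2:**
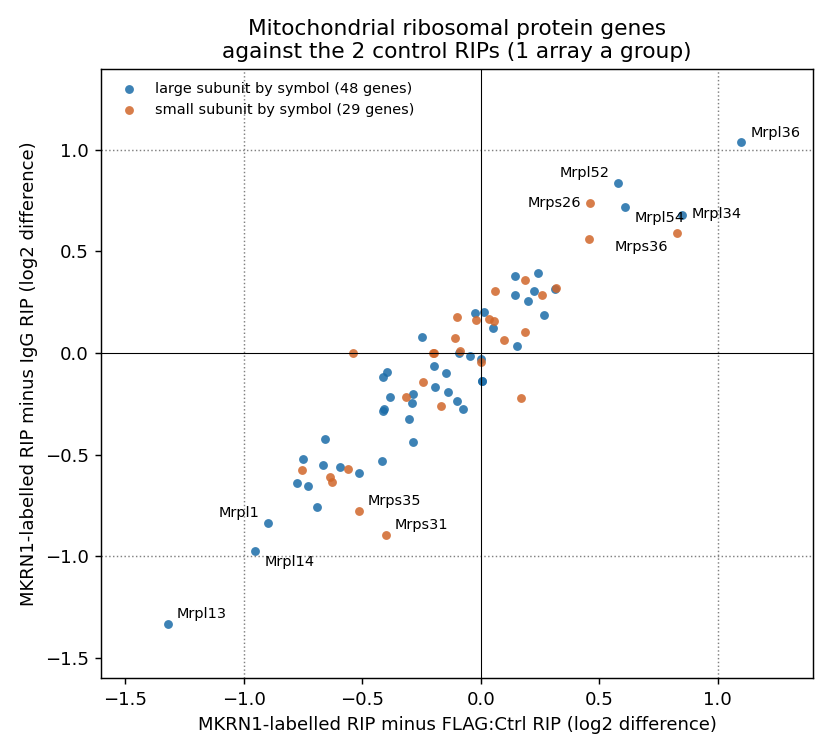
Difference (log2) of the MKRN1-labelled RIP from the FLAG:Ctrl RIP (horizontal axis) and from the IgG RIP (vertical axis) for each mitochondrial ribosomal protein gene, large and small subunit apart; both axes share the MKRN1-labelled array, so the diagonal spread is partly built in. Mrpl36 lies beyond 2-fold at the upper right and Mrpl13 at the lower left, with the other members between them.

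Because few members reached 2-fold, the rest were ordered by a score, the smaller in size of the differences from both control RIPs, set to 0 where these have opposite signs. A score of at least 0.5 was reached by 5 members (6.82% of all kept genes) and a score of -0.5 or lower by 15 (17.8%). The SD of the difference between the control RIPs, which also differ in lysate and antibody, was 0.243 over all kept genes and 0.166 over the members. It does not measure the spread of differences that involve the MKRN1-labelled RIP, which was wider. Over all kept genes the quartiles were -0.08 and 0.11 between the control RIPs. For the MKRN1-labelled RIP they were -0.42 and 0.19 against the FLAG:Ctrl RIP and -0.41 and 0.19 against the IgG RIP.

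Among the large-subunit genes, the highest scores after Mrpl36 were those of Mrpl34, Mrpl54 and Mrpl52. Mrpl34, the homologue of bacterial L34, read 8.84 in the FLAG:Ctrl input, 9.38 in the FLAG:MKRN1 input, 9.00 in the FLAG:Ctrl RIP, 9.85 in the MKRN1-labelled and 9.17 in the IgG RIP. The MKRN1-labelled RIP was again highest, 0.85 and 0.68 above the FLAG:Ctrl and IgG RIPs, but the FLAG:MKRN1 input was also above the FLAG:Ctrl input, by 0.53. Mrpl52, a mitochondria-specific protein, read 9.97, 9.43, 10.23, 10.81 and 9.97 in the same array order. Its MKRN1-labelled value exceeded the FLAG:Ctrl RIP by 0.58 and the IgG RIP by 0.84, and here the FLAG:MKRN1 input was the lowest array. Mrpl54, also mitochondria-specific, read 8.23, 8.32, 8.42, 9.03 and 8.31, with only the MKRN1-labelled RIP standing apart, by 0.61 and 0.72. The fifth, Mrpl10 of the flexible stalk, differed by 0.32 from each control RIP.

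At the low end of the large subunit, Mrpl14, whose bacterial homologue L14 lies at the interface between the subunits, read 8.68 in the FLAG:Ctrl input, 8.60 in the FLAG:MKRN1 input, 8.58 in the FLAG:Ctrl RIP, 7.63 in the MKRN1-labelled and 8.60 in the IgG RIP. The MKRN1-labelled RIP alone was low, by 0.95 and 0.97 against the control RIPs and by 0.97 against its input. Mrpl14 overlaps Tmem63b in RefSeq, and probes of overlapping genes may not be told apart here. In all, 24 members overlap another annotated gene, among them Mrpl2, Mrpl27, Mrps18a, Mrps18b, Mrps25 and Mrps27. Mrpl1, homologous to the L1 stalk protein, read 8.73, 8.66, 9.66, 8.76 and 9.60 in the same order. For Mrpl1 both control RIPs were high, 0.93 and 0.94 above their inputs, and the MKRN1-labelled RIP stayed within 0.10 of its input, as for Mrpl13.

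Mrpl2, homologous to L2 beside the peptidyl transferase centre, read 10.04, 9.89, 10.57, 9.88 and 10.64, with the same arrangement, and its differences from the control RIPs were -0.69 and -0.76. Mrpl15, homologous to L15, read 10.68, 10.73, 11.07, 10.34 and 11.00, with the MKRN1-labelled RIP below both inputs as well as both control RIPs. Of these 5, Mrpl13, Mrpl1 and Mrpl2 had control RIPs above input and the MKRN1-labelled RIP near input, while Mrpl14 and Mrpl15 had the MKRN1-labelled RIP below its input. Mrpl20 did neither: its control RIPs were 0.54 and 0.97 above input and its MKRN1-labelled RIP 0.33 above.

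**Figure D3:**
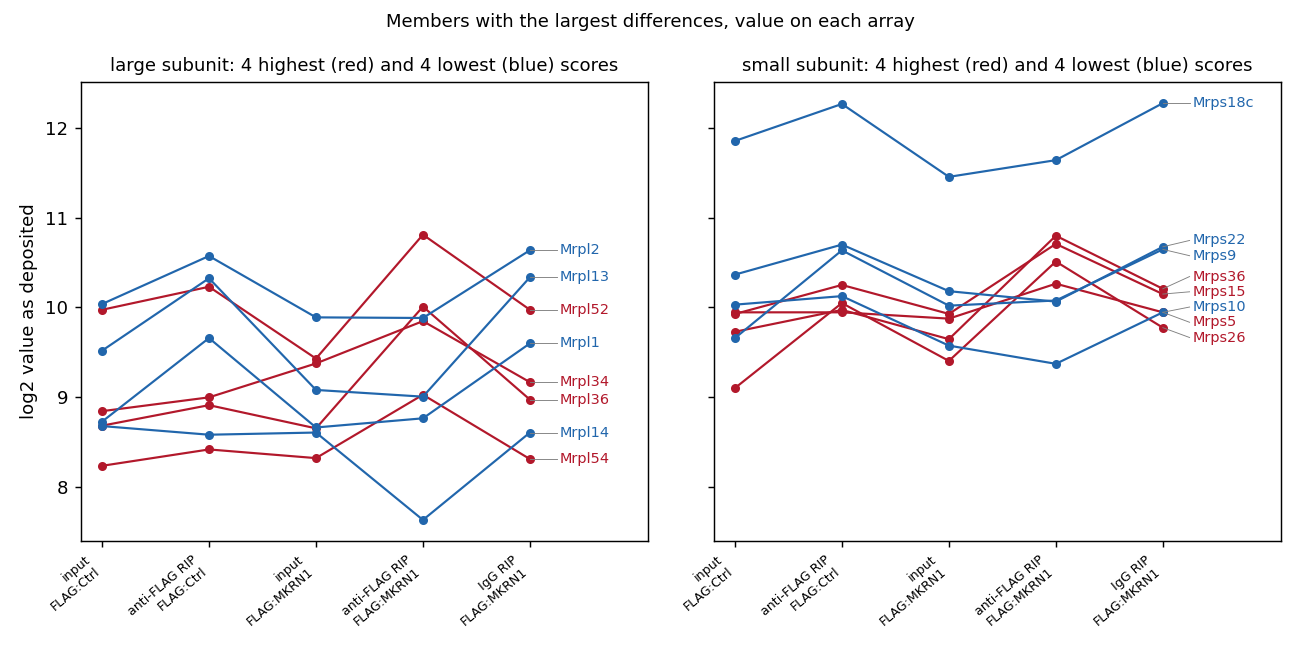
Log2 value of members with the highest and lowest scores on each of the 5 arrays, large and small subunit in separate panels; lines only join the values of one gene, since the arrays have no order. Mrpl36 reads 10.01 in the MKRN1-labelled RIP and at most 8.97 elsewhere, while Mrpl13 reads 10.33 and 10.34 in the control RIPs and 9.00 in the MKRN1-labelled RIP.

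In the small subunit no member was called in either direction. The highest score belonged to Mrps36, which read 9.73 in the FLAG:Ctrl input, 9.65 in the FLAG:MKRN1 input, 9.97 in the FLAG:Ctrl RIP, 10.80 in the MKRN1-labelled and 10.21 in the IgG RIP, 0.83 and 0.59 above the control RIPs. Despite its symbol, the Mrps36 product is a subunit of the 2-oxoglutarate dehydrogenase complex. Its other probe set had a score of -0.08, and RefSeq names 3 pseudogenes for it, so this value is uncertain. Mrps26, a mitochondria-specific protein, read 9.10, 9.40, 10.05, 10.51 and 9.77 in the same order. For Mrps26 every RIP was above every input and the MKRN1-labelled RIP highest, by 0.46 and 0.74 over the control RIPs.

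Mrps15, homologous to bacterial S15, read 9.93 in both inputs, 10.25 in the FLAG:Ctrl RIP, 10.71 in the MKRN1-labelled and 10.15 in the IgG RIP, again with the MKRN1-labelled RIP highest. Mrps6 had the smaller differences of 0.26 and 0.28. For Mrps5, whose homologue S5 lines the mRNA channel, the probe set used was 0.32 above each control RIP. Its other probe set read 9.76, 9.66, 9.79, 8.86 and 9.76, a score of -0.90, so the probe sets of Mrps5 went in opposite directions and no direction is given for it. Mrpl51 was the remaining gene with such a conflict, at -0.25 and 0.04.

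The low end of the small subunit was led by Mrps18c, a further S18 paralogue, which read 11.86 in the FLAG:Ctrl input, 11.46 in the FLAG:MKRN1 input, 12.27 in the FLAG:Ctrl RIP, 11.64 in the MKRN1-labelled and 12.28 in the IgG RIP. The control RIPs were the highest arrays, 0.63 and 0.64 above the MKRN1-labelled RIP. Mrps22, a mitochondria-specific protein, read 10.37, 10.18, 10.70, 10.06 and 10.68, with the MKRN1-labelled RIP lowest, by 0.64 and 0.61 against the control RIPs. Mrps10, homologous to S10, differed by -0.76 and -0.57, and Mrps9, homologous to S9, by -0.56 and -0.57. Mrps9 overlaps the small nucleolar RNA gene Gm23126 in RefSeq. Mrps35 read 8.70, 9.09, 9.42, 8.91 and 9.68, with differences of -0.52 and -0.77.

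The paralogues of bacterial S18 therefore did not move alike in their values. Mrps18a, which lies in the large subunit in mammalian structures, differed by 0.19 and 0.36 from the FLAG:Ctrl and IgG RIPs. Mrps18b differed by 0.03 and 0.17. Mrps18c, with -0.63 and -0.64, was the only paralogue below both control RIPs.

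As a whole, 47 members were below the FLAG:Ctrl RIP in the MKRN1-labelled RIP and 28 above it (52.3% lower and 39.9% higher among all kept genes). Against the IgG RIP 42 read lower and 31 higher (50.1% and 41.2%). The medians were -0.11 and -0.06, against -0.03 and -0.00 over all kept genes. The sign of both medians depended on the scaling: with quantile normalization they were 0.13 and 0.15, so no direction is given for the members as a group.

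The large-subunit members had lower medians than the small-subunit members. Against the FLAG:Ctrl RIP the large-subunit median was -0.17 and the small-subunit median -0.09, and against the IgG RIP these were -0.14 and 0.01. The large subunit had 31 of 48 members lower against each control RIP, and the small subunit 16 and 11 of 29. With Mrps30 and Mrps18a counted in the large subunit, where mammalian structures place them, and Mrps36 left out, the gaps were -0.08 and -0.14. Members are not replicates, so these gaps carry no error and were not tested.

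A wider gap lay within the large subunit, between members with and without a bacterial homologue. The 29 large-subunit members with a bacterial homologue had medians of -0.28 (FLAG:Ctrl) and -0.23 (IgG), with 21 lower in each. The 19 mitochondria-specific large-subunit members had medians of -0.05 and -0.01, with 10 lower in each. All 10 large-subunit members with a score of -0.5 or lower were homologues, among them Mrpl11, Mrpl16, Mrpl18, Mrpl19 and Mrpl20. They were 10 of 29 homologues, where 17.8% of all kept genes had such a score. That count depended on the scaling: it was 3 with quantile normalization, 3 with the trend against signal level removed, 5 with arrays centred on the kept genes and 12 with arrays centred on all probe sets. The share of all kept genes moved too, to 13.2% with quantile normalization, 12.5% with kept-gene centring and 25.7% with probe-set centring. With quantile normalization, 3 of 29 homologues was below the share of all kept genes. Of the 19 specific members none reached the score, except 1 with arrays centred on all probe sets. This split by class was added after seeing the data. The difference of the medians, -0.24 and -0.22, kept its sign under each of the scaling and filter alternatives (centring an array cannot change it), between -0.24 and -0.17 against the FLAG:Ctrl RIP and between -0.22 and -0.15 against the IgG RIP.

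The small subunit did not repeat this order. Its 18 homologues had medians of -0.03 and 0.07 and its 10 specific members -0.26 and -0.02. The homologues of the large subunit also spanned more of the genome than its specific members, with a median gene span of 7.63 kb against 5.43 kb, and the part of span in the gap was not tested.

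**Figure D4:**
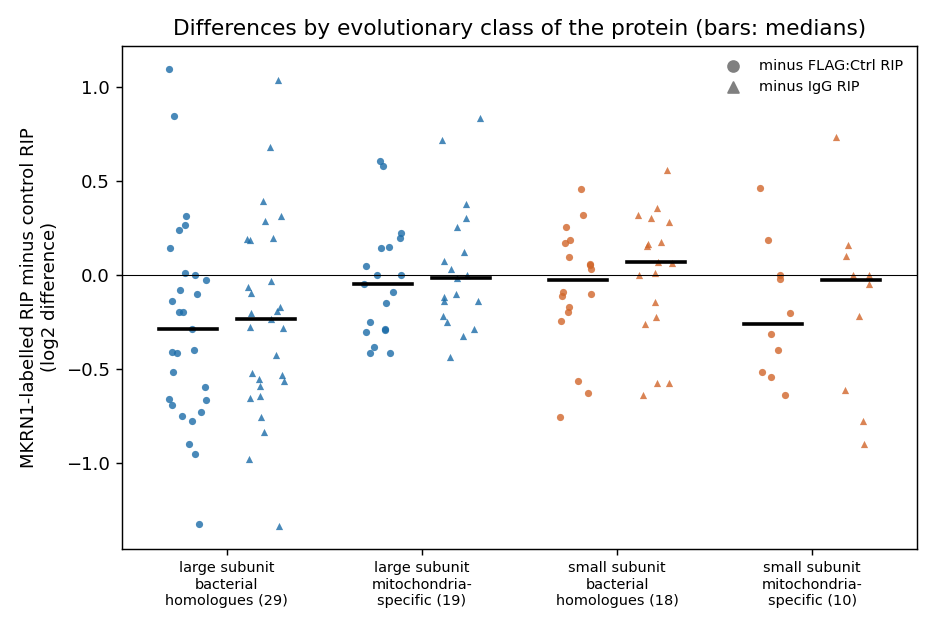
Difference (log2) of the MKRN1-labelled RIP from each control RIP for members grouped by subunit and by whether the protein has a bacterial homologue; points are genes and lines are medians. The large-subunit homologues have the lowest medians, -0.28 for the FLAG:Ctrl and -0.23 for the IgG comparison, and 10 of them pass a score of -0.5, a count that is 3 with quantile normalization or with the trend against signal level removed. Of all kept genes 17.8% pass it, and 13.2% with quantile normalization.

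Gene span, the length from start to end of the RefSeq gene, ran with the difference from the control RIPs among the members as it did over all genes. Across the 77 members the correlation of log10 span with the difference from the FLAG:Ctrl RIP was r = -0.32 (Spearman's rho -0.26), and across 11495 kept genes with a span it was -0.32 (rho -0.32). These are descriptions across genes measured on the same arrays, and genes are not independent replicates. The members were short, with a median of 7.75 kb against 21.2 kb over all kept genes, from Mrpl34 at 0.828 kb to Mrps28 at 122 kb. In the large subunit r was -0.46 (rho -0.34) over 48 genes and in the small subunit -0.20 (rho -0.19) over 29. The 39 members up to the median span had median differences of -0.10 and -0.05 from the FLAG:Ctrl and IgG RIPs, and the 38 longer ones -0.19 and -0.10. Unlike over all kept genes, where the difference from the FLAG:Ctrl RIP fell with the mean value (r = -0.29), the members showed r = -0.01 with it.

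**Figure D5:**
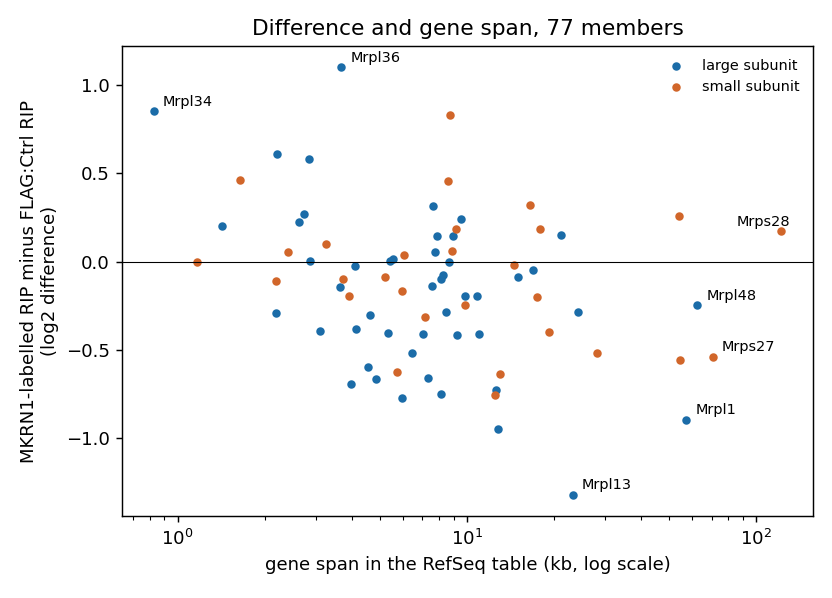
Difference (log2) of the MKRN1-labelled RIP from the FLAG:Ctrl RIP against gene span in kilobases (log axis) for the mitochondrial ribosomal protein genes, large and small subunit apart. Longer genes tend to lie lower (r = -0.32 over 77 genes), with a wide scatter at every span.

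The inputs compare total RNA of the FLAG:MKRN1 and FLAG:Ctrl lines. Of the members 54 read lower in the FLAG:MKRN1 input and 20 higher, where 47.3% of all kept genes read lower and 38.6% higher, with a median difference of -0.08 against 0. No member reached 2-fold in either direction (0.878% of all kept genes higher, 0.791% lower). The lowest were Mrps18b (-0.67), Mrps25 (-0.57) and Mrpl20 (-0.57), and the highest Mrpl27 (0.58), Mrpl9 (0.58) and Mrpl34 (0.53). Mrpl27 read 8.71 in the FLAG:Ctrl input, 9.30 in the FLAG:MKRN1 input, 9.70 in the FLAG:Ctrl RIP, 9.61 in the MKRN1-labelled and 9.84 in the IgG RIP, so that the FLAG:Ctrl input was lowest and the 3 RIPs alike. RefSeq names a pseudogene for Mrpl27, as it does for Mrpl23 and Mrpl48, which leaves these values uncertain. In bulk samples fewer cells of a type and less RNA per cell cannot be told apart.

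The control RIPs lay close to each other for these genes. None of the members differed 2-fold between them (0.174% of all kept genes higher and 0.278% lower in the FLAG:Ctrl RIP), and the median difference was 0.07. The widest gaps were in Mrps27, a pentatricopeptide repeat protein, at 0.54 and in Mrps31 at -0.50. Mrps27 read 7.77 in the FLAG:Ctrl RIP and 7.24 in the FLAG:MKRN1 input, the MKRN1-labelled RIP and the IgG RIP alike, with 6.81 in the FLAG:Ctrl input. Mrps31 read 10.32, 10.59, 10.75, 10.35 and 11.25 on the arrays in the usual order, so its MKRN1-labelled value was 0.40 below the FLAG:Ctrl RIP but 0.89 below the IgG RIP.

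Of proteins of the mitochondrial ribosome with other symbols, 4 were on the arrays (Dap3, Ptcd3, Chchd1 and Gadd45gip1), and none was called, nor was Oxa1l, which the same list held. Ptcd3, a pentatricopeptide repeat protein of the small subunit, had the largest differences, -0.93 and -0.98 from the FLAG:Ctrl and IgG RIPs. The GTP-binding protein Dap3 differed by -0.24 and 0.20. Oxa1l, an inner-membrane insertase that receives nascent chains from the large subunit and is not a ribosomal protein, differed by -0.27 from each.

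The factors that work with these ribosomes are read against the shares of all kept genes, 1.09% called higher and 5.36% called lower. Of 12 mitochondrial translation factors, 2 were called lower and none higher. All 12 read below the FLAG:Ctrl RIP and 10 below the IgG RIP (52.3% and 50.1% of all kept genes), with medians of -0.55 and -0.57. Gfm1, the elongation factor G of mitochondria, read 10.40 in the FLAG:Ctrl input, 10.39 in the FLAG:MKRN1 input, 10.58 in the FLAG:Ctrl RIP, 9.50 in the MKRN1-labelled and 10.65 in the IgG RIP. The MKRN1-labelled RIP alone was low. Mtfmt, which formylates the initiator methionyl-tRNA, differed by -1.19 and -1.17. Whether these factors differ from the ribosomal proteins was not tested.

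Of 24 assembly factors, 1 was called higher and 2 lower (4.17% and 8.33%), and the medians were -0.20 and -0.13. The RNA helicase Ddx28, which acts in large-subunit assembly, read 7.29, 7.86, 7.88, 9.20 and 8.03, with the MKRN1-labelled RIP highest. The GTPases Noa1 (-1.02 and -1.35) and Gtpbp10 (-1.25 and -1.45) were the lower calls. Of 19 genes of mitochondrial transcription and RNA handling 2 were called lower (10.5%), the polynucleotide phosphorylase Pnpt1 (-1.97 and -1.99) and the mRNA-stabilising protein Lrpprc (-1.05 and -1.02), and the medians were -0.40 and -0.57. Of 16 mitochondrial tRNA synthetases 1 was called lower (6.25%), the asparaginyl enzyme Nars2 (-1.26 and -1.78), and the arginyl enzyme Rars2 came next (-0.92 and -0.78). The medians of the synthetases, -0.10 and -0.01, were not below those of the members. None of the transcription and RNA-handling genes and none of the synthetases was called higher.

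Set beside the other ribosome and beside the proteins whose assembly the mitochondrial ribosome serves, the members had the highest median of the 3 families in each control RIP. The 59 genes chosen by cytosolic ribosomal symbols (Rpl or Rps and a digit), which take in the S19-binding protein gene Rps19bp1 and the retrogene Rps23rg1, had a median of 0.07 above input in each control RIP, and the 88 nuclear oxidative phosphorylation genes 0.10 in the FLAG:Ctrl RIP and 0.22 in the IgG RIP, against 0.25 and 0.34 for the members. In the MKRN1-labelled RIP the medians above input were 0.17, 0.20 and 0.23 in the same order. The shares of genes above input in the IgG RIP were close, at 76.3%, 83.0% and 84.4% in that order. In the FLAG:Ctrl RIP they were 71.2%, 68.2% and 85.7%. The 12 mitochondrial translation factors had medians of 0.24 and 0.27 above input in the FLAG:Ctrl and IgG RIPs, near those of the members. Against the FLAG:Ctrl RIP all 3 families had medians near 0, at -0.01 for the cytosolic ribosomal proteins, -0.06 for oxidative phosphorylation and -0.11 for the members. Between the inputs, 65 of the 88 oxidative phosphorylation genes and 54 of the 77 members read lower in the FLAG:MKRN1 input, with medians of -0.09 and -0.08. Of the 59 cytosolic ribosomal genes 21 read lower and 32 higher, with a median of 0.02. None of the cytosolic ribosomal genes was called. Of the oxidative phosphorylation genes 2 were called higher and 4 lower (2.27% and 4.55%, against 1.09% and 5.36% of all kept genes). The families also differed in level, with median mean values of 13.0 for the cytosolic ribosomal genes, 11.2 for oxidative phosphorylation and 9.37 for the members. The differences between families, and the part of signal level in them, were not tested.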

How the data were processed

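RNA was measured on 5 Affymetrix arrays, 1 for each sample; 10 ng RNA entered the cDNA synthesis per the labels' protocols. The deposited values are on the log2 scale, as read from their range; how they were background-corrected, summarised and normalized is not given in the sources used. Symbols came from the platform annotation. The probe set with the highest mean stood for a gene, and 11502 of 19937 genes with a mean at or above the median probe set (5.76) were kept. Differences of log2 values were taken with Python 3.11.15 (pandas 2.3.3, numpy 2.4.6, statsmodels 0.14.6) and checked on simulated data. No p-value was computed: 1 array a group has no replicate spread; precision is limited by the number of arrays. Gene spans, overlaps and promoter sequences are RefSeq's (GRCm38.p6); all 77 symbols matched. Apart from the median levels of the 3 gene families, signals of different probe sets were not compared. The 3 brightest and 3 dimmest members of each subunit, also in the naming rule, are therefore not described.

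Members were named where called, where among the 5 highest or lowest scores of a subunit or the 3 highest or lowest of another comparison, or where probe sets conflicted; of other lists, called genes and the 2 largest scores. Mrps18a, Mrpl11, Mrpl18, Mrpl19, Mrpl41, Mrpl58, Dap3 and genes named for motifs were added after their values were seen. The members and lists were chosen with earlier results of these data known. Alternatives were scaling, filter, probe set, fold threshold, control and subunit assignment.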

Additional observations from a re-analysis of the deposited data

Results flagged for a closer look

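Mrpl15, homologous to bacterial L15, moved in opposite directions in the anti-FLAG RIPs of the FLAG:Ctrl and FLAG:MKRN1 lysates. Its RIP minus input difference was 0.39 in the FLAG:Ctrl lysate and -0.38 in the FLAG:MKRN1 lysate. Over all kept genes the lower and upper quartiles of this difference were -0.07 and 0.23 in the FLAG:Ctrl lysate. In the FLAG:MKRN1 lysate they were wider, at -0.30 and 0.28. Mrpl15 was not the only member with these signs: Mrps35 (0.72 and -0.18), Mrps31 (0.44 and -0.24) and Mrps22 (0.33 and -0.12) had them too. The shares of members and of all kept genes with such signs are not given here. With 1 array in each group the difference was not tested.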

How the results depend on the processing

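No paired analysis was possible because each group holds 1 array, and for the same reason no replicate could be left out. With arrays centred on the median of all probe sets, which shifted all kept genes by -0.23 against the FLAG:Ctrl RIP, 0 members were called higher and 3 lower (Mrpl1, Mrpl13, Mrpl14), and the member medians were -0.31 against the FLAG:Ctrl RIP, -0.24 against the IgG RIP and 0.13 against the FLAG:MKRN1 input. Centring arrays on the kept genes was chosen after seeing the data. It gave member medians of 0.056 relative to the FLAG:Ctrl RIP and 0.082 relative to the IgG RIP. The medians of all kept genes rose too, to 0.137 and 0.143, so the members stayed below this background. With quantile normalization 0 members were called lower, and the medians were 0.13 and 0.15 against the control RIPs, and 0.14 (FLAG:Ctrl) and 0.23 (IgG) for the control RIPs above input. With the trend against signal level removed the count called lower was 0, and the same medians were 0.16, 0.17, 0.12 and 0.23. At 1.5-fold 4 members were called higher and 5 lower, at 4-fold 0 and 0, and with own inputs taken off first 0 were called lower. Shares of all kept genes at 1.5-fold and 4-fold are not given here, so those counts cannot be read against a background. Over all kept genes, calls higher and lower were 125 and 617, against 64 and 968 with probe-set centring, 183 and 415 with quantile normalization and 184 and 379 with the trend removed. The count of members above input in both control RIPs lay between 49 and 68, while the share of all kept genes ran from 23.2% to 64.5%. The gap of large minus small subunit kept its sign.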

Other observations

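The probe set annotated to both Ccdc142 and Mrpl53, which was not a member because it carries more than 1 symbol, read 6.95 on all 5 arrays.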
